A study of Mus musculus with 217 samples.

Results

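The genes Akr1c18, Timp1 and Inpp4b were followed through every single mouse oocyte and every pool of granulosa cells of the series. They were selected on their rise in Tet2 knockout oocytes: among the 8 genes called higher in summed knockout oocytes than in summed wild-type oocytes, these 3 had the largest fold changes. They are 3 of the 53619 genes in the count tables. Their difference between knockout and wild-type oocyte sums is therefore given as a description, without a test, and only measures that this choice did not use were tested. The series compared ovarian RNA of ageing mice with and without resveratrol, a plant polyphenol. C57BL6/129 mice carried either wild-type or knockout Tet2, and resveratrol was given at 30 mg per L in drinking water from 2 months of age, against a DMSO control.

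The wild-type oocyte groups were 18 oocytes at 2 months, 20 control and 14 resveratrol oocytes at 6 months, and 20 control and 14 resveratrol oocytes at 10 months. The knockout groups were 15 oocytes at 2 months, 20 and 20 at 6 months, and 15 and 15 at 10 months, in the same order. All were ovulated metaphase II oocytes of mice given PMSG and hCG, stripped of their cumulus by hyaluronidase, and each library held 1 oocyte. Granulosa cells, the somatic cells that surround the oocyte, came from punctured follicles after PMSG alone, as 3 pools each of wild-type and knockout-labelled mice at 2 months and at 10 months with control or resveratrol water. A separate set held C57BL6 oocytes, 11 control at 6 months and 6 control and 10 resveratrol at 10 months. The labels name no mouse for any library and do not say which part of Tet2 was deleted. The p-values for granulosa pools thus measure spread among samples that may be technical repeats. Because oocytes of 1 group may share a mouse, each oocyte group counts as 1 sample and its oocytes were summed for tests. With 1 sum a group, SE and p-values of the oocyte fit measure departures from additive effects of age, genotype and treatment. They do not measure spread among mice.

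Akr1c18 encodes an aldo-keto reductase that inactivates progesterone and is known as a marker of luteinised and regressing luteal cells. Timp1 encodes a secreted inhibitor of matrix metalloproteinases that the gonadotropin surge induces in granulosa cells, where it takes part in remodelling the follicle wall. Inpp4b encodes a phosphatase that removes a phosphate from the inositol lipids made by phosphoinositide 3-kinase and so dampens Akt signalling. Tet2, the gene deleted here, encodes an enzyme that oxidises methylated cytosine, the usual first step of active DNA demethylation.

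The libraries of the 86 wild-type and 85 knockout oocytes held 3386039 to 8775154 counts (median 4401090) over 15077 to 19306 genes. Depth spread most in the 6-month knockout groups and in part of the 2-month knockout group, where libraries held 3386039 to 6116464 and up to 8775154 counts, while every wild-type library held 4187483 to 4661161 counts. Tet2 was lower in all 5 knockout sums, at 0.941 to 1.38 CPM (the count scaled to library size), than in all 5 wild-type sums, at 2.3 to 3.39 CPM. The 20 oocyte markers summed to 26656 to 39461 CPM in 8 of the groups and to 30197 and 29747 CPM in the control and resveratrol 6-month knockout groups. The genotype tag of the 18 wild-type oocytes of 2 months contradicts their titles, which were followed, and their Tet2 level of 2.89 CPM lay within the wild-type range. In granulosa pools Tet2 was not lower under the knockout label, with 15.7 ± 5.14 CPM against 11.6 ± 1.63 CPM (SD, n = 3 each) in 10-month controls, so these pools are called knockout-labelled.

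Akr1c18 lies on the minus strand of chromosome 13 (GRCm38, chr13:4132615-4150654), Timp1 on the plus strand of chromosome X (chrX:20870166-20874735) and Inpp4b on the plus strand of chromosome 8 (chr8:81342556-82127914). Timp1 sits inside Syn1, a gene on the opposite strand, with 0 shared exon bases. The closest relative of Akr1c18 in transcript sequence, Akr1c6, was 77.5% identical over 955 aligned bases, and no gene was 95% identical to any of the 3. The 250 bases before each start site are shown because Tet2 acts on methylated CG sites and because Akr1c18 and Timp1 rose in the same oocytes. They were taken from RefSeq (GRCm38.p6), where all 3 genes matched by symbol, at chr13:4150647-4150896 (minus strand), chrX:20869916-20870165 and chr8:81342312-81342561 (plus strand). Sequences run 5′ to 3′ on the strand of the gene and capitals mark CG sites.
Akr1c18: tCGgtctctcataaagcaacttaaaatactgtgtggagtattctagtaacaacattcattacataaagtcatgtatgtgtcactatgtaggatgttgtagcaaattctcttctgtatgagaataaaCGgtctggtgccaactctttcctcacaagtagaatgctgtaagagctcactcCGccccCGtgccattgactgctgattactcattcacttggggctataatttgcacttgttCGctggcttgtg
Timp1: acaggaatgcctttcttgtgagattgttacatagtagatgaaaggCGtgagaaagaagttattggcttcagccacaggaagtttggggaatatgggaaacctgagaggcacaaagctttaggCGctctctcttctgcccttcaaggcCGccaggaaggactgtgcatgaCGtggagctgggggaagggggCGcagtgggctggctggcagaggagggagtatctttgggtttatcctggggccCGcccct
Inpp4b: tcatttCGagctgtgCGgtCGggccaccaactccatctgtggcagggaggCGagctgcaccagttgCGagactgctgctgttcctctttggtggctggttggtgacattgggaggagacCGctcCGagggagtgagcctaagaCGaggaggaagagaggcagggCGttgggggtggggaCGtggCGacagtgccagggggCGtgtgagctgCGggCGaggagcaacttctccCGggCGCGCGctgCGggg
These windows held 5 CG sites in Akr1c18, 6 in Timp1 and 19 in Inpp4b, against a median of 6 over 32851 promoter windows. As many CG sites as in Inpp4b occurred in 19.7% of all windows, and as many as in Akr1c18 in 55.6%. On either strand, TGACG, the core of the cAMP response element, matched once in Timp1, 84 bases before the start, and matches in 17.8% of windows. The GC box GGGCGG matched once in Akr1c18 (73 bases before the start) and once in Timp1 (8 bases), and in 32.7% of windows. The AP-1 site TGANTCA (6.75% of windows) and the NR5A site AAGGTCA (4.08%) matched in none of the 3, and no match overlapped another. The promoters thus shared no motif searched beyond the GC box of Akr1c18 and Timp1, and methylation was not analysed here.

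In wild-type oocytes all 3 genes were near 0. Over the 86 wild-type oocytes, Akr1c18 had 12 counts in all and at most 2 in 1 oocyte, Timp1 had 14 and at most 2, and Inpp4b had 28 and at most 6. No wild-type oocyte reached 10 counts of any of the 3, which allows a share of up to 3.49%. All intervals on counts cover counting error only, and the reads carry no molecular identifiers. Limits and intervals on shares of oocytes take the oocytes as independent, although oocytes of 1 group may share a mouse.

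Akr1c18 was high in the knockout oocytes of 6 months and there only in some of them. Control oocytes of that group had 0 to 306 counts (median 3), or 0 to 69.8 CPM, and resveratrol oocytes had 0 to 535 counts (median 0), or 0 to 95.1 CPM. In both groups 7 of 20 oocytes reached 10 counts (35%, exact 95% interval 15.4 to 59.2%), while 8 of 20 control and 12 of 20 resveratrol oocytes had 0. The sums came to 14.3 CPM (Poisson 95% interval 13.6 to 15) and 10.9 CPM (10.2 to 11.5). A single oocyte, with 535 counts, held 53.6% of the resveratrol sum, which was 5.37 CPM without it, and the highest control oocyte held 21.2% of its sum. The other knockout groups had 0 to 2 counts an oocyte at 2 months (0.0262 CPM in the sum), 0 to 2 at 10 months control (0.046 CPM) and 0 to 3 at 10 months resveratrol (0.0911 CPM). In the wild type the sums ran from 0 at 10 months, with either water, to 0.113 CPM in 6-month controls, where 7 of 20 oocytes had 1 or 2 counts. The 6-month knockout sums stood apart from the other 8. Among those, the 6-month wild-type control sum (10 counts, Poisson 95% interval 0.0542 to 0.208 CPM) lay above the upper limit of 0.0422 CPM of the 10-month wild-type control sum, which held 0 counts. The 6-month wild-type resveratrol sum held 1 count (0.0162 CPM, 0.00041 to 0.0903) and overlapped both. The first contrast is 1 pair among these 8 sums, with counting error only, and no age difference is read from it.

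Timp1 was also high in knockout oocytes of 6 months, and in more of them. The 6-month knockout controls had 0 to 354 counts (median 71.5), or 0 to 66.4 CPM, and the resveratrol oocytes had 0 to 266 counts (median 2), or 0 to 47.3 CPM. Of the control oocytes 17 of 20 reached 10 counts (85%, exact 95% interval 62.1 to 96.8%), against 9 of 20 with resveratrol (45%, 23.1 to 68.5%). Nothing is read from the overlap of these intervals, which take the oocytes as independent. With 1 sample a group the difference between control and resveratrol has no test. Timp1 divided these 40 oocytes into those with 21 counts or more and those with 2 or fewer, with 0 oocytes between 3 and 20. The sums were 18.4 CPM (17.6 to 19.3) in controls and 8.69 CPM (8.10 to 9.31) with resveratrol. Elsewhere Timp1 reached at most 4 counts in an oocyte, and the sums ran from 0 in 2-month wild type to 0.105 CPM in 2-month knockout.

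**Figure D1:**
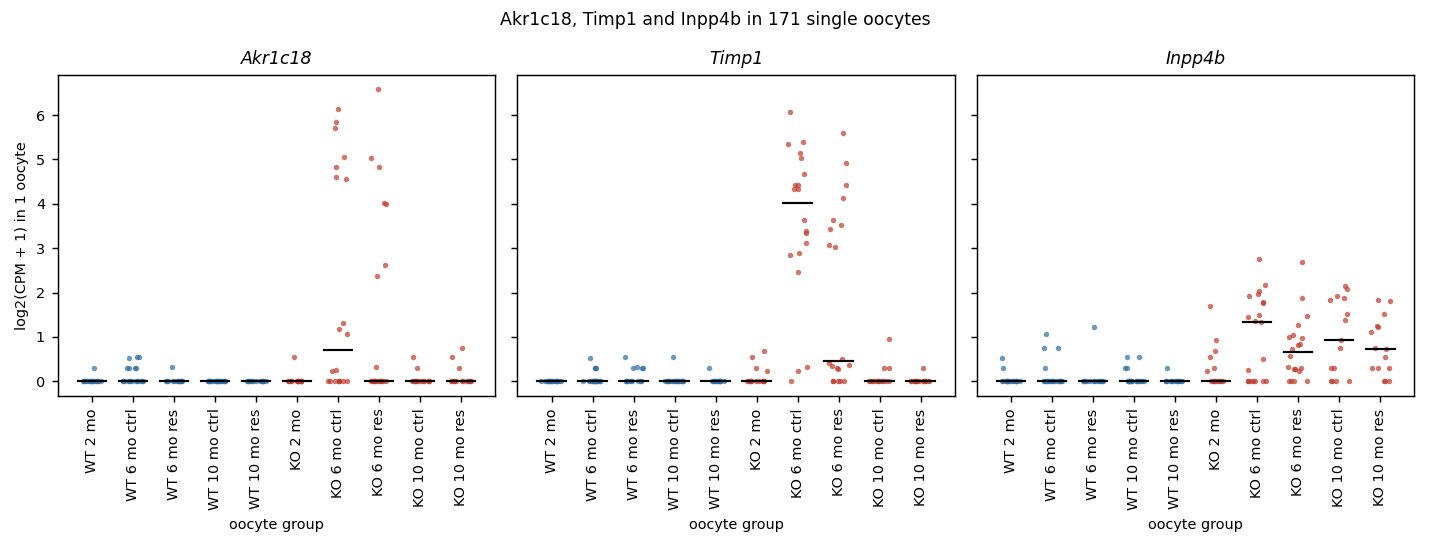
Level of each gene in every C57BL6/129 oocyte, as log2(CPM + 1), by group (WT blue, KO red; ctrl is control, res is resveratrol, mo is months); each point is 1 oocyte, spread sideways for view, and the bar is the group median. Akr1c18 and Timp1 reach 10 or more counts in 14 and 26 of the 40 knockout oocytes at 6 months and in no other oocyte shown, while Inpp4b is low and spread over all knockout groups.

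Akr1c18 and Timp1 were high in the same oocytes. All 14 of the 6-month knockout oocytes with 10 or more counts of Akr1c18 also had 10 or more of Timp1. Another 12 oocytes had Timp1 alone, 7 of them with Akr1c18 at 0, and 14 had neither. The oocyte with the most Akr1c18, resveratrol oocyte 2 of header number 3 (a number explained below), had 535 counts of Akr1c18 and 266 of Timp1. The one with the most Timp1, control oocyte 5 of header number 2, had 272 and 354. By contrast, control oocyte 4 of header number 3 had 0 counts of Akr1c18 and 102 of Timp1. Over the 40 oocytes, which share 2 groups and differ in depth, Spearman's rho of the CPM values was 0.74, and it was 0.72 and 0.73 within the control and resveratrol oocytes. Timp1 was thus seen without Akr1c18, and Akr1c18 at 10 counts or more was not seen without Timp1.

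Genes of the cells that surround the oocyte moved with Akr1c18 and Timp1. Of 25 markers of cumulus and granulosa cells, 15 were higher in both 6-month knockout sums than in each of the other 8 sums, against 9.94% of the 22533 genes with 10 or more counts in any sum. The 25 markers together came to 193 CPM in the control and 103 CPM in the resveratrol 6-month knockout sums, and to 44.2 to 74.5 CPM in the other 8. In single oocytes the marker sum ran from 24.1 to 494 CPM in 6-month knockout controls, from 57.9 to 155 CPM with resveratrol, and from 19.4 to 121 CPM in the other groups. None of the 25 was at 0 in the control and 3 were at 0 in the resveratrol 6-month knockout sum, and 7 to 13 were at 0 in each of the other sums. Inha, the inhibin alpha chain, was at 29.5 and 6.65 CPM in these 2 sums and at most 0.847 CPM elsewhere. Tnfaip6, a hyaluronan-binding protein of the expanding cumulus, was at 29.4 and 8.87 CPM and at most 0.492 CPM elsewhere. Cyp11a1, which starts steroid synthesis from cholesterol, was at 18.5 and 8.97 CPM against at most 1.15 CPM. A single oocyte held 48.4% of its control sum, which was 10.1 CPM without that oocyte, and the resveratrol sum of Inha was 4.15 CPM without its highest oocyte. The markers Cyp19a1 and Nr5a2 lay at 31.4 to 58.0 CPM and 7.91 to 11.1 CPM over all 10 sums. Cyp19a1 thus made up most of the marker sum in the other 8, although its median in the granulosa pools was only 3.35 CPM. The marker sums there are therefore no baseline of granulosa RNA.

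Across the 40 knockout oocytes of 6 months, rho with Timp1 was 0.78 for Tnfaip6, 0.71 for Inha and 0.60 for Cyp11a1, and it was 0.63, 0.46 and 0.38 within controls and 0.77, 0.79 and 0.72 within resveratrol oocytes. Akr1c18 had rho of 0.62, 0.54 and 0.68 with the same 3 genes, or 0.47, 0.29 and 0.44 within controls and 0.79, 0.79 and 0.80 with resveratrol. The values for both genes were thus higher within the resveratrol oocytes. Inpp4b had rho of 0.11, -0.02 and 0.54 within controls and -0.30, -0.15 and -0.25 with resveratrol. With Akr1c18 it had 0.59 and -0.25, and with Timp1 0.42 and -0.24, so that most of its values differed in sign between the groups. These values carry no p. Single oocytes could differ in this. Control oocyte 7 of header number 1 had 37 counts of Timp1, 575 of Inha and 433 of Tnfaip6, while control oocyte 6 of header number 2 had 38 of Timp1, 1 of Inha and 0 of Tnfaip6. Only 1 wild-type oocyte had 10 or more counts of Inha or Tnfaip6, a 10-month control with 74 and 41 counts, and it had 2 counts of Timp1 and 0 of Akr1c18. The part of adhering or residual cumulus RNA in the Akr1c18 and Timp1 values was not tested. Markers of macrophages and other leukocytes summed to 36.5 and 31.7 CPM in the 6-month knockout sums and to 11.8 to 40.0 CPM in the other 8, so the groups overlap.

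**Figure D2:**
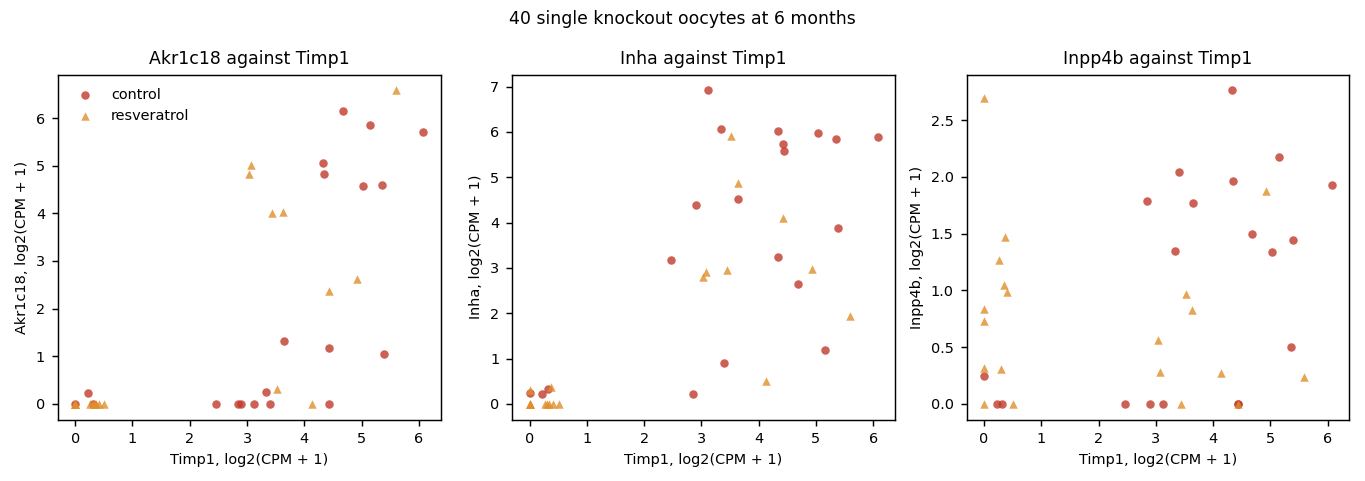
The 40 knockout oocytes of 6 months, each a point (circles control, triangles resveratrol), with Timp1 on the x axis and Akr1c18, the cumulus marker Inha or Inpp4b on the y axis, all as log2(CPM + 1). Akr1c18 and Inha are low where Timp1 is low (rho 0.74 and 0.71), and Inpp4b has rho of 0.42 with Timp1 in controls and -0.24 with resveratrol.

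Inpp4b behaved otherwise. It had at most 34 counts in an oocyte, it was found in knockout oocytes of all 3 ages, and it was near 0 in granulosa cells. Knockout oocytes had 0 to 11 counts at 2 months (median 0), 0 to 34 in 6-month controls (median 7.5), 0 to 26 in 6-month resveratrol (median 2.5), 0 to 15 in 10-month controls (median 4) and 0 to 11 in 10-month resveratrol oocytes (median 3). Of the 85 knockout oocytes 58 had at least 1 count (68.2%), against 12 of 86 wild-type oocytes (14%). The median depths of the groups lay between 4323552 and 4889496 counts. The knockout sums were 0.367 CPM at 2 months, 1.61 and 0.891 CPM at 6 months and 1.35 and 0.881 CPM at 10 months, control before resveratrol. The wild-type sums were 0.0373 CPM at 2 months, 0.136 and 0.0972 CPM at 6 months and 0.0687 and 0.0165 CPM at 10 months. The knockout and wild-type sums do not overlap, although the single oocytes do. Per kilobase of transcript its highest knockout sum, 0.123 CPM, lay far under the 11.8 CPM of Akr1c18 and the 20.7 CPM of Timp1 in the same sum.

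The column headers of the oocyte table give each oocyte a first number before a point, and the labels do not say whether this header number stands for a mouse, a day or a plate. It splits the C57BL6/129 oocytes into 26 sets of 1 to 12 oocytes, leaving out 1 oocyte whose header has no point. Tet2 was lower in all 14 knockout sets (0.760 to 1.84 CPM) than in all 12 wild-type sets (2.13 to 4.81 CPM). Akr1c18 lay at 13.1, 20.2 and 10.1 CPM in the 3 sets of 6-month knockout controls. The highest oocyte held 61.6%, 43.8% and 94.4% of these sums, and without it they were 5.86, 13.7 and 0.651 CPM. In the 3 sets of 6-month knockout resveratrol oocytes it lay at 12.2, 0.0264 and 20.8 CPM. The second of these, with 9 oocytes and 1 count in all, was as low as the other knockout and wild-type sets, which ran from 0 to 0.170 CPM. Timp1 lay at 11.1, 28.2 and 17.6 CPM in the control sets and at 16.1, 3.33 and 11 CPM in the resveratrol sets, and at 0 to 0.231 CPM in the other 20 sets. Oocytes with 10 or more counts of Timp1 were found in all 6 of the 6-month knockout sets and those with 10 or more of Akr1c18 in 5, with 1 such oocyte in control set 3. Of the 6 sets, resveratrol set 2 was lowest for both genes.

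Inpp4b differed between sets of the same group. In 2-month knockout oocytes all 5 of header number 1 had Inpp4b, with 8, 4, 3, 1 and 11 counts, while the 10 of header number 2 had 1 count in all. That is 0.830 CPM against 0.0228 CPM. The 5 oocytes of header number 1 were also the deeper ones, at 4903831 to 8775154 counts against 4331050 to 4560715, and with every oocyte thinned to 3386039 counts the levels were 0.768 and 0.0295 CPM. Tet2 was low in both sets, at 1.29 and 0.843 CPM. The 10-month knockout control sets were at 2.31, 0.383 and 1.6 CPM and the resveratrol sets at 0.152, 1.48 and 0.852 CPM, and their depths were alike (4297459 to 4550740 counts). Those of 6 months were at 1.89, 1.98 and 0.906 CPM with control water and at 1.05, 0.582 and 1.13 CPM with resveratrol. Wild-type sets ran from 0 to 0.438 CPM, the highest being a single oocyte with 2 counts, so 3 knockout sets lay inside the wild-type range and 11 above it.

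**Figure D3:**
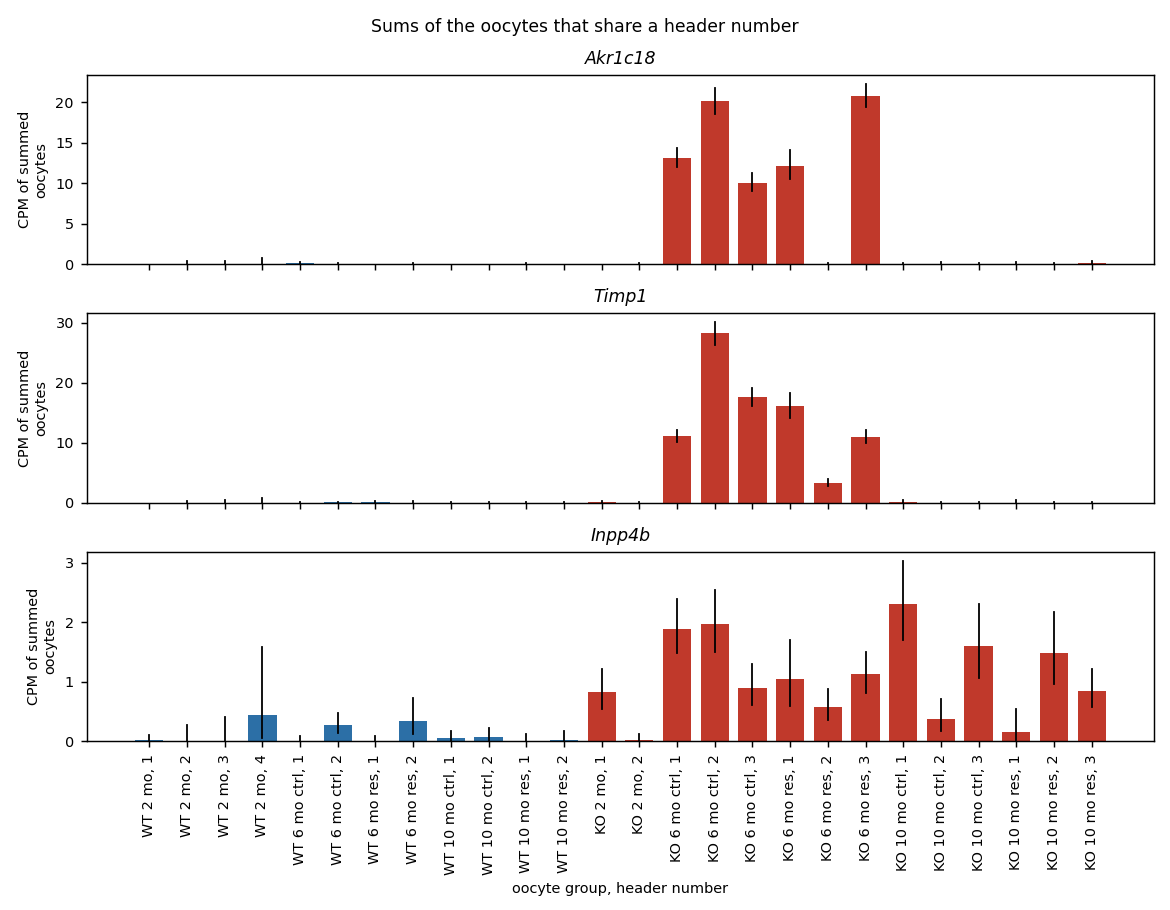
Summed CPM of the oocytes that share a header number, by group (WT blue, KO red; ctrl is control, res is resveratrol, mo is months), for each gene; bars start at 0 and lines are Poisson 95% intervals, which cover counting error only. Timp1 stands out in all 6 of the 6-month knockout sets and Akr1c18 in all but resveratrol set 2 (0.0264 CPM), and Inpp4b varies between sets of 1 group, from 0.0228 to 0.830 CPM in 2-month knockout oocytes.

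Set against wild type at the same age and water, Akr1c18 and Timp1 stood apart at 6 months and Inpp4b at every age. Akr1c18 was 126 times higher in knockout at 6 months in controls (Poisson 95% interval of the ratio 68.5 to 264) and 670 times higher with resveratrol (120 to 26476, against 1 wild-type count). At 2 months the sums held 2 knockout counts and 1 wild-type count, too few for a ratio. At 10 months the wild-type sums held 0 counts and the knockout sums 3 in controls and 6 with resveratrol, the latter at least 1.85 times higher against a floor of 3 counts a sum. Timp1 was 326 times (139 to 1004) and 89.4 times higher (40.9 to 244) at 6 months, at least 2.8 times higher at 2 months, and at a ratio of 4.02 (0.718 to 40.7) in 10-month controls. With resveratrol at 10 months Timp1 had 1 count in each sum. Inpp4b was higher in all 5 settings. The ratio was 9.82 (3.03 to 50.5) at 2 months, where header number 1 held 27 of the 28 knockout counts. It was 11.8 (6.6 to 23.4) and 9.16 (4.03 to 25.7) at 6 months. At 10 months it was 19.6 (8.67 to 54.9) and 53.5 (9.23 to 2150, against 1 wild-type count). These intervals give the counting error of the sums that chose the members and are no test.

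**Figure D4:**
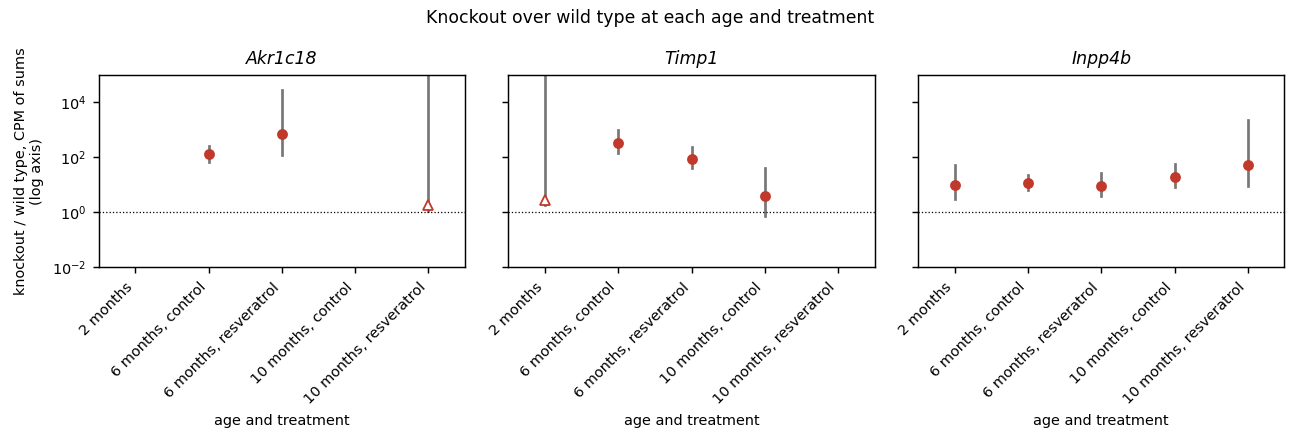
Ratio of knockout to wild-type CPM of the summed oocytes at each age and water (log axis), with Poisson 95% intervals that cover counting error only; open triangles are lower bounds against a wild-type sum of 0 set to 3 counts, lines cut by the frame run beyond it, and a place is empty where both sums held 3 counts or fewer. Akr1c18 and Timp1 stand above 1 by the most at 6 months (89.4 to 670), and Inpp4b stands between 9.16 and 53.5 throughout.

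In the additive fit to the 10 sums (age, genotype and treatment), by which the members were chosen, the log2 difference of knockout from wild type was 7.06 (SE 0.72) for Akr1c18, 6.47 (SE 0.88) for Timp1 and 3.77 (SE 0.38) for Inpp4b. That fit called 29 of 20806 genes, 0.139%, of which 8 were higher and 21 lower, and nothing is read from this share for genes the fit itself supplied. By size alone, over all genes tested, they ranked at 10, 12 and 68. The next called gene, Rpl34, a ribosomal protein of the large subunit, had a log2 difference of 1.61 (SE 0.23), with 15.5 to 24.8 CPM in knockout sums and 4.48 to 9.63 CPM in wild-type sums. Without either 6-month knockout sum, Akr1c18 and Timp1 fell under the filter on low counts and could not be fitted, whereas Inpp4b stayed at 3.53 to 3.94 with any 1 of the 10 sums left out.

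Age and resveratrol were terms of the same fit, tested with edgeR's quasi-likelihood test and Benjamini-Hochberg adjustment over all 20806 genes. Akr1c18 and Timp1 entered that fit only through the 6-month knockout sums, which also chose them, so their difference between 6 and 2 months, 8.09 (SE 1.1) and 7.03 (SE 1.21) on the log2 scale, is a description with no test. An additive model gives 1 age effect to both genotypes, and the wild-type sums at 6 months, 0.113 and 0.0162 CPM for Akr1c18 and 0.0565 and 0.0972 CPM for Timp1, stayed near 0. Inpp4b differed by 2.03 (SE 0.57, adjusted p = 0.502), and no gene passed in that comparison (0% of those tested), while 1905 had an unadjusted p under 0.05 and DESeq2 called 210. From 2 to 10 months the differences were 0.86 (SE 1.23) for Akr1c18 and 0.15 (SE 1.55) for Timp1. These too are a description, since the sums of those ages held at most 6 and 8 counts of these genes. Inpp4b differed by 1.54 (SE 0.57, adjusted p = 0.290), where 1 gene passed (0.00481%). Between resveratrol and control the differences were -0.39 (SE 0.57) for Akr1c18 and -0.81 (SE 0.71) for Timp1. Both rest on the 6-month knockout sums, which held nearly all counts of these genes, and are given without a test. Inpp4b differed by -0.74 (SE 0.39, adjusted p = 1), with 0% of genes past the threshold (362 at an unadjusted p under 0.05, and 14 by DESeq2). Inpp4b passed neither for 10 against 2 months nor for resveratrol in this fit. Nothing is read from these terms for Akr1c18 and Timp1.

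By Pearson's r of log2(CPM + 1) over the 10 sums, among 9369 genes with a mean of at least 2 CPM, the genes most like Akr1c18 were Timp1 (0.995), Sfrp4 (0.990) and Cyp11a1 (0.985). Those most like Timp1 were Sfrp4 (0.996), Akr1c18 (0.995) and Cyp11a1 (0.993). These 10 sums also chose the members, and Akr1c18 and Timp1 are high in the 6-month knockout sums alone. A high r with any gene high in that pair follows from this choice and is a description only. Sfrp4, a secreted Wnt modulator, was at 15.6 and 7.51 CPM in the 6-month knockout sums and at most 0.320 CPM in the wild type. Over the single C57BL6/129 oocytes Akr1c18 was most like Timp1 (0.783), Cyp11a1 (0.745) and Tceal9 (0.731). Timp1 was there most like Ephx2 (0.937), an epoxide hydrolase, Rgcc (0.929) and Spp1 (0.914), which encodes the secreted protein osteopontin. Spp1 was at 532 and 211 CPM in the 6-month knockout sums and at most 16.8 CPM in the wild type. The granulosa median divided by the control 6-month knockout oocyte sum was 142 for Akr1c18, 135 for Timp1, 159 for Cyp11a1, 124 for Sfrp4, 118 for Spp1 and 106 for Rgcc, and 37.0 for Tnfaip6 and 41.7 for Inha. It was 94.5 for Ephx2 and 89.4 for Tceal9, and for Cyp11a1 it was 292 without its highest oocyte. Against the resveratrol 6-month knockout sum it was 188 for Akr1c18, 286 for Timp1, 328 for Cyp11a1, 258 for Sfrp4, 123 for Tnfaip6 and 185 for Inha. For Akr1c18 it was 379 there without its highest oocyte. The granulosa values are scaled by TMM factors and come from pools of 2 and 10 months after PMSG alone. The oocyte sums are plain CPM.

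The genes most like Inpp4b were others. Over the 10 sums they were Lamtor3 (0.919), Rpl34 (0.917) and Egfem1 (0.902), and over single oocytes they included Amer1 (0.517) and Eps8 (0.481). Rpl34 is also a gene called higher in knockout sums. Lamtor3 was at 543 and 480 CPM in 6-month knockout sums and reached 411 CPM in the wild type, and Amer1 was at 19.9 and 23.9 CPM against at most 10.9 CPM. Correlations over these points rest on shared groups, the 10 sums are those that chose the members, and no p is given.

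None of the 12 tested genes next to the members in the genome passed for knockout against wild type in edgeR's test, with adjusted p of at least 0.199. Over all genes tested 0.139% were called, so nothing is read from this about the neighbours. Akr1c14, beside Akr1c18 and of the same family, was at 3.52 CPM in 6-month knockout controls and 0.229 to 0.889 CPM in the other 9 sums (log2 difference 1.35, SE 0.41, adjusted p = 0.223). Akr1c19 and Ucn3 lay at 0.349 to 1.29 CPM and 0.0226 to 0.137 CPM. Around Timp1, the host gene Syn1 was at 0.0613 to 0.454 CPM and Araf and Usp11 at 7.31 to 16.2 CPM and 6.80 to 17.2 CPM. Around Inpp4b, Gab1 was at 1.01 to 2.56 CPM and Usp38 at 94.0 to 167 CPM.

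No other listed gene of the 3 pathways passed for knockout in oocytes, where 0.139% of all 20806 genes tested were called. With so few calls over all genes, nothing is read from this about the pathways. None of the 22 tested genes of progesterone synthesis, breakdown and reception besides Akr1c18 passed for knockout in edgeR's test, nor did any of 24 metalloproteinases and their inhibitors or 47 genes of phosphoinositide signalling. Their median log2 differences were 0.14, -0.03 and 0.06, against 0.02 over all genes tested. Among those with most counts, Srd5a3, a steroid reductase family member, averaged 182 ± 18.5 CPM (SD, n = 10 sums), and Adam17, a membrane sheddase, averaged 132 ± 13.4 CPM. Foxo3, a transcription factor that Akt restrains, averaged 204 ± 40.3 CPM. Inpp4a, the paralog of Inpp4b, was at 55.5 to 93.4 CPM in knockout and 59.7 to 85.5 CPM in wild-type sums. Timp2 and Timp3 reached 0.793 and 1.3 CPM in 6-month knockout controls against at most 0.132 and 0.411 CPM in the wild type (adjusted p = 0.334 and 0.827). Of the steroid enzymes, Hsd3b1, which makes progesterone, was at 28.0 and 3.44 CPM in the 6-month knockout sums, 0.167 to 0.597 CPM in the other knockout sums and 0.114 to 2.41 CPM in the wild type (log2 difference 1.00, SE 1.29, adjusted p = 0.785). Hsd3b1 was thus highest in the same pair of sums as Akr1c18, without passing the test.

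C57BL6 oocytes, of another strain background and with no knockout, gave a separate view of the levels without Tet2 deletion. Akr1c18 had 0 counts in all 27, which limits its level over 145978561 counts to 0.0253 CPM (Poisson 95% bound). Timp1 had 5 counts in 3 oocytes. Inpp4b had 23 counts in 5 oocytes: 0 in the 11 oocytes of 6 months, 13 and 1 in 2 of the 6 control oocytes of 10 months, and 4, 4 and 1 in 3 of the 10 resveratrol oocytes. With 1 sum a group there is no test. Inpp4b was at least 5.37 times higher at 10 than at 6 months (14 counts against a floor of 3 counts a sum), a value that rests on 1 oocyte with 13 of the 14 counts. The ratio of resveratrol to control had an interval of 0.157 to 1.02.

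In granulosa pools Akr1c18 and Timp1 were abundant and Inpp4b was nearly absent. Over the 18 pools Akr1c18 had a median of 2036 CPM scaled by TMM factors (276 to 4766) and Timp1 of 2487 CPM (1119 to 3356), or 1687 and 2800 CPM per kilobase of transcript. Inpp4b had 34 counts among 189332939, with 0 in 10 of the 18 pools and at most 15 in 1, so it entered no granulosa test. A pool mixes many cells, so fewer cells of a type and less RNA per cell cannot be told apart. Depth differed with age: 5 of the 6 pools of 2 months held 470647 to 749172 counts, and the other pools held 5995491 to 20537935. Age and depth can therefore not be fully told apart in these pools.

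Akr1c18 in granulosa pools was highest in 10-month wild-type resveratrol pools, at 4602, 4766 and 4127 CPM, and these did not overlap any other group. How many of all genes separate in this way was not counted, and nothing is read from it. The 10-month wild-type controls were at 2561, 2720 and 2130 CPM. Knockout-labelled pools of 10 months were at 2602, 1938 and 1709 CPM with control water and at 3367, 1560 and 1581 CPM with resveratrol. At 2 months wild-type pools were at 688, 1282 and 1389 CPM and knockout-labelled pools at 276, 2387 and 1942 CPM. Group means followed the order 4498 ± 332, 2470 ± 305, 2169 ± 1037, 2083 ± 464, 1535 ± 1113 and 1120 ± 378 CPM (SD, n = 3 each), and after the first, neighbours in that order overlap. Akr1c18 passed in none of the 7 comparisons by edgeR's test, which called between 0.0285% and 5.17% of 17558 genes. The log2 difference was 0.86 (SE 0.44, adjusted p = 0.319) for resveratrol in the wild type and -1.05 (SE 0.44, adjusted p = 0.363) for the knockout label under resveratrol. It was 1.14 (SE 0.44, adjusted p = 0.199) for 10 against 2 months in the wild type. These 3 passed when only the 2 groups compared were fitted (adjusted p = 0.00418, 0.0379 and 0.00345), and also without the filter on low counts. With only the 2 groups fitted, far more of all genes were called for resveratrol and for age in the wild type (counts in the last section). The passes are therefore not particular to Akr1c18.

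Timp1 was more even between pools of 1 group and passed in 3 of the 7 comparisons. At 10 months wild-type controls were at 1750, 1861 and 2196 CPM, wild-type resveratrol pools at 3310, 3347 and 3001 CPM, knockout-labelled controls at 3068, 2940 and 2989 CPM and knockout-labelled resveratrol pools at 3356, 2777 and 2978 CPM. At 2 months the pools were at 1742, 1588 and 1119 CPM in the wild type and at 1313, 1750 and 1493 CPM under the knockout label. Timp1 rose from 2 to 10 months under the knockout label by 0.98 on the log2 scale (SE 0.17, edgeR adjusted p = 0.00168), in a comparison that called 5.17% of 17558 genes. It was 0.73 higher with resveratrol in the wild type (SE 0.17, adjusted p = 0.0353), where 1.62% were called, and 0.63 higher under the knockout label in 10-month controls (SE 0.17, adjusted p = 0.0361), where 3.86% were called. The latter pair no longer passed when any 1 of the 6 pools compared was left out (adjusted p = 0.0615 to 0.239 and 0.0626 to 0.212), nor with the replicate number as a block (0.0543 and 0.055). The rise with age under the knockout label passed with any 1 pool left out (adjusted p = 0.000888 to 0.0149) and was lost with only the 2 groups fitted (adjusted p = 0.109).

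In the other 4 comparisons Timp1 did not pass: 10 against 2 months in the wild type (0.38, SE 0.17, adjusted p = 0.266, where 1.53% of genes were called), resveratrol under the knockout label (0.02, SE 0.17, adjusted p = 1, 0.0285%), and the knockout label at 2 months (0.04, SE 0.17, adjusted p = 0.967, 0.114%) and under resveratrol at 10 months (-0.08, SE 0.17, adjusted p = 0.943, 1.07%). The difference between genotype labels was itself tested and did not pass in edgeR's test, either for age (0.60, SE 0.24, adjusted p = 0.552) or for resveratrol (-0.72, SE 0.24, adjusted p = 0.385). Timp1 was therefore not shown to respond differently under the 2 labels.

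**Figure D5:**
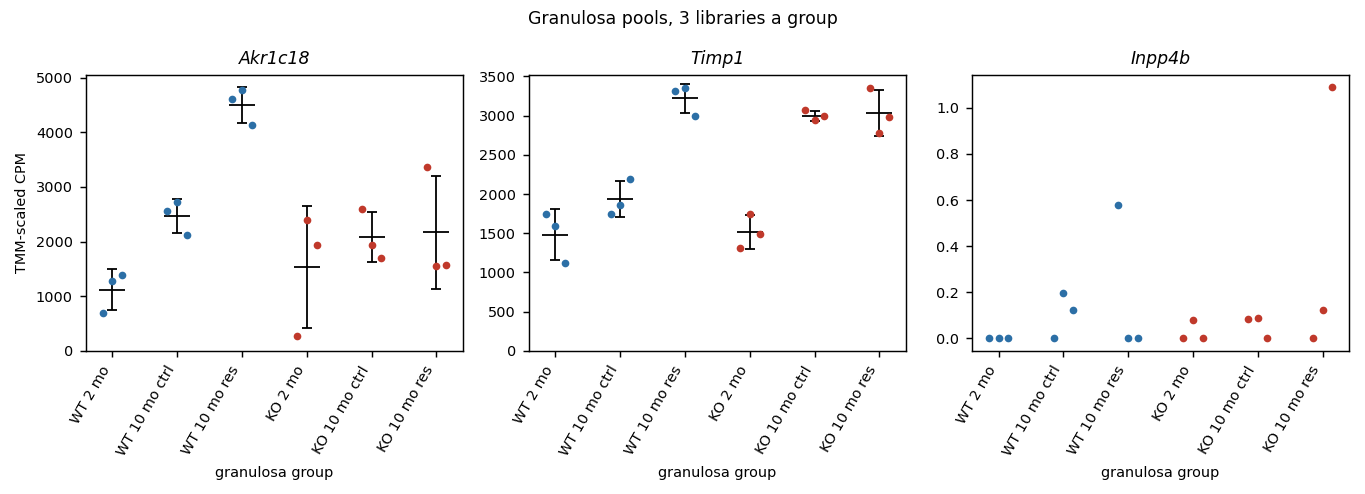
TMM-scaled CPM of each gene in the 18 granulosa pools (points; WT blue, KO-labelled red; ctrl is control, res is resveratrol, mo is months), with group mean and SD as lines for Akr1c18 and Timp1. Wild-type resveratrol pools are highest for Akr1c18 (4127 to 4766 CPM), and Inpp4b stays at or under 1.09 CPM.

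Leukocyte markers also changed in the 3 comparisons in which Timp1 passed, and not only there. The 16 macrophage and leukocyte markers summed to 112 to 158 CPM in 10-month wild-type controls, 232 to 396 CPM with resveratrol, 1333 to 1748 CPM in knockout-labelled controls and 421 to 887 CPM in knockout-labelled resveratrol pools, and at 2 months to 75.9 to 90.9 CPM in the wild type and 43.7 to 813 CPM under the knockout label. Of the 15 tested, 7 were higher in 10 against 2 months under the knockout label, where 5.17% of all genes were called (edgeR, adjusted p under 0.05). With resveratrol in the wild type 6 were higher and 1 lower, where 1.62% of all genes were called. In 10-month controls 13 were higher under the knockout label, where 3.86% of all genes were called. Under resveratrol at 10 months, where Timp1 did not pass, 3 were higher under the knockout label (1.07% of all genes called). For resveratrol against control under the knockout label Timp1 did not pass either. There the marker sum was lower with resveratrol, at the values above, and 0 of the 15 were called (0.0285% of all genes). At 0 in all 3 pools were 9 markers in 2-month wild type, among them Ptprc, C1qa, C1qb, C1qc and Tyrobp, and Cd3e alone in the 2-month knockout-labelled pools and the 10-month knockout-labelled controls. The 10 markers of endothelium and blood summed to 303 to 506 CPM in 2-month and 1717 to 2242 CPM in 10-month control pools under the knockout label, without overlap, and Tek and Emcn were at 0 in both. In the wild type they overlapped between resveratrol (483 to 8303 CPM) and control (273 to 3852 CPM). The part of these cells in the Timp1 result was not tested.

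Other genes of the progesterone and metalloproteinase lists passed in some granulosa comparisons. In 10 against 2 months under the knockout label, where 5.17% of all genes were called, 1 of 23 progesterone-pathway genes was higher, Fdx1, an electron carrier of steroid synthesis (0.74, SE 0.20, adjusted p = 0.0272), and 3 were lower, Srd5a1 (-1.67), Akr1c14 (-1.44) and Hsd3b1 (-0.81). Hsd3b1 (-1.07), Fdxr (-0.88) and the membrane progestin receptor Paqr7 (-1.19) were lower under the knockout label in 10-month controls (3 of 23, against 3.86% of all genes), and Hsd17b7 (-1.21) was lower in 10 against 2 months in the wild type (1 of 23, against 1.53%). Of 23 metalloproteinases and inhibitors, Timp2 (1.85) and Cd63 (0.64), a surface partner of Timp1, rose with age under the knockout label. Mmp9, a gelatinase that Timp1 inhibits and that leukocytes also make, was at 47.3, 5.91 and 12.8 CPM in 10-month wild-type resveratrol pools and had 0 counts in the wild-type controls (adjusted p = 0.00277). It was at 0.166, 0 and 1.02 CPM in knockout-labelled resveratrol pools, lower than in the wild type by -5.85 on the log2 scale (SE 0.93, adjusted p = 0.00291). None of 48 phosphoinositide genes passed in any of the 7 comparisons. All these calls are from edgeR's test with adjustment over 17558 genes.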

How the data were processed

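Smart-seq2 libraries of single oocytes and granulosa pools were read as pairs of 150 bases, per the labels' protocols. The authors deposited raw counts of reads for each gene. HISAT2 2.1.0, featureCounts, DESeq2 and mm10 stand in the submitters' processing notes with no roles given. Strand use in counting is not stated there. All columns were used (0 left out), and 0 pairs among 217 libraries were identical.

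Groups follow the titles. A C57BL6 oocyte whose title and tag disagree was left out. Labels give the granulosa pool as 500 cells and as 50.

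CPM divides by the library's total count. edgeR 4.0.16 in R 4.3.3 (quasi-likelihood test, TMM factors, filterByExpr minimum count 10, Benjamini-Hochberg threshold 0.05) fitted the 10 oocyte sums on age, genotype and treatment (5 residual df) and the 18 granulosa pools on 6 group means (12 residual df). Alternatives used DESeq2 1.42.0 and limma 3.58.1. The code was tested on simulated counts. Replicate numbers did not pair granulosa pools, with correlations of deviations from -0.12 to 0.15.

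Members and gene lists were chosen with earlier results of these data known. Genes named are the members, Tet2, listed pathway genes that passed (up to 4 a comparison) or had most counts, markers, neighbours, and the 3 genes most like each member. A gene that this rule names is not reported here. Example oocytes were chosen after their values were seen.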

Additional observations from a re-analysis of the deposited data

Results flagged for a closer look

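In 3 of the 6 sets of C57BL6 values examined, the gap between the highest oocyte and the next was wide against the whole range. In the 6 control oocytes of 10 months, the highest Inpp4b value was 2.55 CPM (13 counts) and the next was 0.237 CPM. In the same group 1 oocyte had Timp1 at 0.71 CPM (3 counts) and the other 5 had 0. Among the 10 resveratrol oocytes 1 had Timp1 at 0.274 CPM (1 count) and the other 9 had 0. Where all other oocytes are at 0, any single count meets this rule, so the Timp1 values, of 1 to 3 counts, are no sign of an unusual oocyte. For values with a spread, chance marks about 1 group in 20.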

How the results depend on the processing

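Of 323 values of the 3 genes under other settings, 270 kept their direction and were counted as unchanged. For most comparisons this meant the same side of the threshold. For knockout against wild type no threshold was used. There it meant a log2 difference moved by less than the SD of the gene's log2 ratios over ages and waters. For knockout against wild type in oocyte sums, the group mean of log2(CPM + 1), a scale compressed by the added 1, gave 0.71, 1.09 and 0.69 for Akr1c18, Timp1 and Inpp4b. Leaving out 1 sum gave 6.26 to 7.84, 5.07 to 6.99 and 3.53 to 3.94. For Akr1c18 and Timp1 these ranges, and those below for oocyte sums, cover only 8 left-out sums. Without either 6-month knockout sum both genes fell under the filter and could not be fitted. For 10 against 2 months Akr1c18 turned to -0.40 with DESeq2 and ran from -4.83 (without the 2-month knockout sum) to 1.77 with 1 sum left out. Timp1 ran from -0.38 to 0.91 with 1 sum left out and was 1.37 with DESeq2. For 6 against 2 months, where these genes entered the fit only through the 6-month knockout sums, Akr1c18 passed without the filter (8.09), with DESeq2 (6.13) and without the 6-month wild-type resveratrol sum (leave-one-out range 2.47 to 8.93), and Timp1 passed without the filter (7.03) and with DESeq2 (6.85). For resveratrol, with 1 sum left out, Akr1c18 ran from -0.71 to 0.06.

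In granulosa pools Akr1c18 passed without the filter and with only the 2 groups compared for age in the wild type (1.22 and 1.04), resveratrol in the wild type (0.79 and 0.82) and the knockout label under resveratrol (-1.06 and -1.08). Timp1 with age under the knockout label was lost with only the 2 groups compared (0.92). With resveratrol in the wild type it was lost after thinning all libraries to the shallowest (0.62), with the replicate block (0.73) and without any 1 pool (0.63 to 0.82). For the knockout label in 10-month controls it was lost with RLE size factors (0.59), no filter (0.56), thinning (0.55), the replicate block (0.63) and without any 1 pool (0.56 to 0.71). The block changed no other call of the 3 genes. Values near 0 turned. With 1 pool left out Akr1c18 ran from -0.07 to 0.93 (age, knockout label), from -0.40 to 0.26 (resveratrol, knockout label, and -0.01 thinned) and from -0.06 to 0.96 (label, 2 months). With 1 pool left out Timp1 ran from -0.06 to 0.09 (resveratrol, knockout label) and from -0.13 to 0.19 (label, 2 months, with -0.01 by RLE, -0.01 by DESeq2, -0.06 thinned and -0.02 with 2 groups). The cause of these changes was not tested.

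Counts of genes called moved by over 1.5 times in 83 of 141 settings. For knockout in oocyte sums 29 calls became 231 without the filter, 579 with DESeq2, 8 with age and treatment strata as a block, and 0 without either 10-month knockout sum. Over all sums left out in turn the count ran from 0 to 85. For 10 against 2 months in oocytes 1 call became 71 without the filter and 571 with DESeq2. In granulosa pools leaving out 1 pool moved the counts most for resveratrol in the wild type (285 to between 3 and 80), age in the wild type (268 to between 60 and 120), age under the knockout label (908 to between 343 and 1397) and the knockout label in 10-month controls (678 to between 185 and 954). With only the groups compared they were 1783, 936, 104 and 1134, with DESeq2 914, 523, 1192 and 1041, and after thinning 15, 191, 398 and 168. The replicate block gave 107 calls for resveratrol in the wild type. Thinning every oocyte to 3386039 counts, chosen after seeing the data, left 13 of 14, 26 of 26 and 6 of 9 knockout oocytes of 6 months at 10 or more counts of Akr1c18, Timp1 and Inpp4b, and 3 of 8 at other ages for Inpp4b. A planned limit of 500000 counts or 5000 genes removed 0 oocytes. Leaving out the oocyte with the most counts of a gene, also chosen after seeing the data, moved 3 of 14 sums of 6-month knockout oocytes by over 1.5 times, those of Akr1c18 and Inha with resveratrol and of Cyp11a1 in controls.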
